A study of Mus musculus with 19 samples.

Results

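Fat of diabetic NOD mice was compared with fat of normal NOD mice in 4 of the 19 arrays of the series, chosen by the tissue and disease status on their labels. Of these, 2 arrays came from new onset diabetic mice (DIA) and were set against 2 arrays from normal, non diabetic mice (NOR). All animals were female NOD (NOD/LtJx) mice, an inbred strain in which autoimmune destruction of the pancreatic beta cells leads to diabetes, and no treatment is labelled for either group. The 5 other fat arrays came from new onset diabetic mice given AAT (alpha1 antitrypsin, 2 arrays) or PM (the Power Mix regimen, 3 arrays), and they served to estimate the spread. The labels give neither the fat depot nor the age at collection. The study's methods name epididymal white fat, taken for RNA and immunoblots after a fast and an injection of insulin or saline, but do not tie it to these arrays, and the labels give female mice. Nothing in these sources tells if each array held a mouse of its own, so the p-values measure only the spread between these samples, which may be technical. A streptozotocin protocol that the labels attach to every sample describes mice first treated with anti-TNF-α, a group that is not among these arrays.

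White fat takes up glucose through the insulin-regulated transporter Glut4, turns it into fatty acids and stores them as triglyceride. Insulin drives this program through the transcription factors SREBP-1c and ChREBP, and it restrains both triglyceride breakdown and the genes of the fasted state. Fat also holds fibroblasts, blood vessels, macrophages and lymphocytes, and TNF-α made by immune cells is known to interfere with insulin signaling in adipocytes. The comparison asks which of these programs differ in fat once NOD mice have become diabetic.

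Each array gives 1 signal for each of 45037 transcripts (probe sets), and for each of 18193 genes the brightest of its probe sets was used. The log2 signals of the 2 DIA arrays correlated at 0.866 and those of the 2 NOR arrays at 0.812 (Pearson). NOR array 2 correlated with the DIA arrays at 0.856 and 0.858, more closely than with NOR array 1, which correlated with them at 0.775 and 0.768. The tissue label was checked against Fabp4, the fatty acid binding protein of adipocytes, which was at 104040.0 and 144810.0 in DIA fat and 339480.0 and 155630.0 in NOR fat. The brown fat gene Ucp1 was at 9.77 and 124 in DIA fat and 35.6 and 30.3 in NOR fat, and the pan T cell gene Cd3e at 94.2 and 187 in DIA fat and 112 and 36.3 in NOR fat.

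A measure that is used for RNA quality moved with the groups. The ratio of the 3' to the 5' signal of beta actin, which grows as RNA is shortened, was 15.2 and 15.5 in DIA fat against 3.63 and 4.30 in NOR fat, and the other 5 fat arrays lay between 3.35 and 9.08. The same ratio for Gapdh was 2.46 and 4.63 in DIA fat and 0.910 and 0.946 in NOR fat. Both DIA arrays thus lay outside the range of all other fat arrays in actin, so that a fit with this ratio as a term has to reach beyond the values of the other groups. Its median standard error (SE) was 1.74, against 0.78 without the term, on the log2 scale. The label protocol names 2 ways of amplification and does not say which array had which. Whether the ratio differs through the RNA or through the amplification was not tested. How much of each difference below goes with this ratio was not tested either, and values with the actin term are given beside most gene groups.

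**Figure D1:**
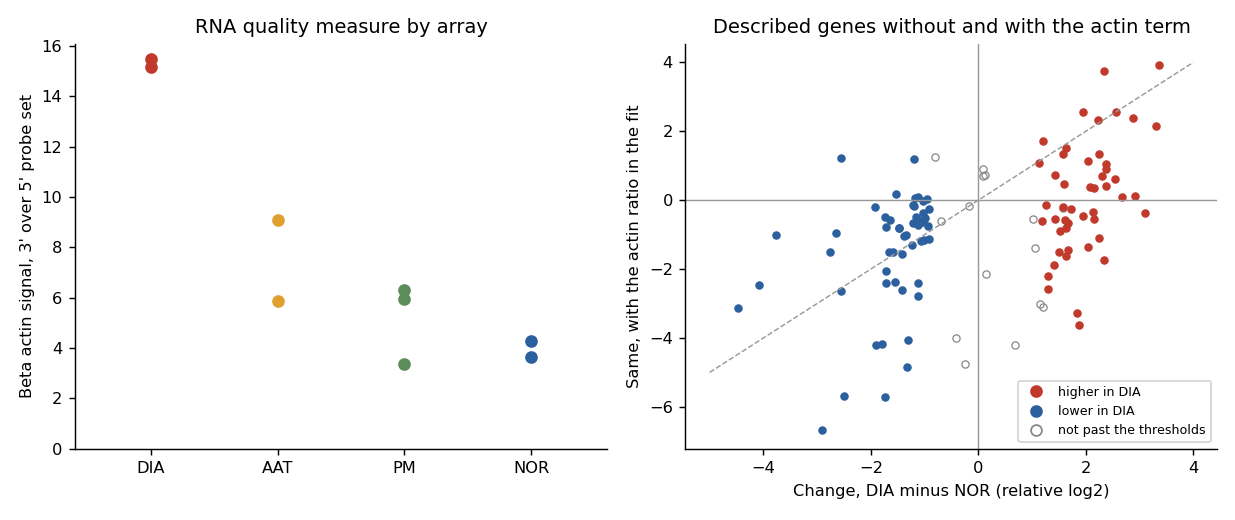
Left, the ratio of 3' to 5' beta actin signal (y axis, no unit) in each fat array by group; right, the change between DIA and NOR fat of the described genes other than Lep (x axis, log2 relative to the median of all transcripts) against the same change with the actin ratio as a term of the fit (y axis, log2), where the dashed line marks equal values. Values on the y axis at right are relative to the median of the fit with the term. The DIA arrays at 15.2 and 15.5 lie above all other arrays, and many genes higher in DIA fall below 0 on the y axis.

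The median change of all transcripts between DIA and NOR fat was −0.11 (log2), and every change of the main fit is given relative to it. Changes in other settings, as with the actin term or 1 array left out, are relative to the median of that setting. All p-values are those of the change as measured. Changes were estimated with limma over the 9 fat arrays. Beside the changes stand the standard error and the adjusted p over all transcripts. A transcript is called higher or lower here by the thresholds of the study, a fold change over 2 as measured with an unadjusted p of at most 0.05, so a called gene can have a relative change just under 1. These took in 3455 of the 45037 transcripts, which is 7.67%, of which 1709 were higher and 1746 lower. Among genes, 589 (3.24%) were higher and 659 (3.62%) lower. These shares are the scale for every count of called genes in a list below. After Benjamini-Hochberg adjustment over all transcripts, 0 were called (0%) with limma, and 2 with rank products. The smallest adjusted p was 0.143, while 4036 transcripts had an unadjusted p under 0.05. The DIA arrays lay wholly above the NOR arrays in 3133 genes (17.2%) and wholly below them in 4383 (24.1%), which sets the scale for groups of 2 arrays that do not overlap. Each named gene was recomputed in up to 19 other settings, of which 9 left out 1 array each. Rank products and 1 probe set per gene were run for the counts of calls only and are not among these 19. Of the 100 called genes named in all, 30 no longer passed without NOR array 1, 16 without NOR array 2, 25 without DIA array 1 and 27 without DIA array 2.

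The 15 genes higher in DIA fat with the smallest p begin here with 6 that are known from blood cells or macrophages, grouped after their values were seen. Laptm5, a lysosomal membrane protein of blood cells, had signals of 5178 and 5500.4 in DIA fat and 872 and 1126 in NOR fat, a relative change of 2.54 (SE 0.33, adjusted p = 0.143). Coro1a, an actin binding protein of leukocytes, had 968 and 1509.9 in DIA fat against 253 and 191 in NOR fat, with a change of 2.57 (SE 0.40, adjusted p = 0.314). Ly86, the partner of the B cell and macrophage receptor RP105, was at 700.0 and 898 in DIA fat and 46.1 and 162 in NOR fat, a change of 3.30 (SE 0.56, adjusted p = 0.388). The groups were apart in all 3, as the choice of these 15 genes required, and NOR array 1 held the lowest signal of Ly86. The C-type lectin Clec10a of macrophages and dendritic cells stood at 3376 and 3189.7 in DIA fat and 407 and 540.0 in NOR fat, and the change was 2.91 (SE 0.54, adjusted p = 0.388). F13a1, the coagulation factor XIII subunit made by tissue macrophages, gave 7718 and 10109 in DIA fat and 2237 and 2410.0 in NOR fat, a change of 2.03 (SE 0.38, adjusted p = 0.388). The complement subunit C1qb gave 2896 and 7560.1 in DIA fat and 766 and 1359 in NOR fat, a change of 2.30 (SE 0.44, adjusted p = 0.388). Fewer cells of a type and less RNA per cell cannot be told apart in tissue arrays, here and in all groups below.

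The other genes of these 15, which were taken from those with separate groups and a mean no lower than the median, were of several kinds. Tgfbi, a matrix protein induced by TGF-beta, was at 5692 and 7295 in DIA fat and 1472 and 1454 in NOR fat, a change of 2.25 (SE 0.30, adjusted p = 0.143). In Tgfbi the NOR arrays nearly coincided, and the AAT arrays, at 6292 and 4958, lay close to DIA while the PM arrays, at 1951, 1674 and 1414, lay close to NOR. Cdon, a cell surface coreceptor for Hedgehog ligands, was at 1931 and 1449 in DIA fat and 665 and 545 in NOR fat, a change of 1.58 (SE 0.32). The proteoglycan Sdc1 gave 1074 and 1047 in DIA fat and 193 and 343 in NOR fat, a change of 2.15 (SE 0.46). The cargo receptor of the secretory pathway Lman2 changed by 2.07 (SE 0.40), the nuclear pore protein Pom121 by 1.60 (SE 0.33) and the ubiquitin ligase Dtx3 by 1.72 (SE 0.36). The remaining 3, Pnpla3, Scd2 and Acss2, belong to lipid synthesis and are described with it. Of 21 other probe sets of these 15 genes, 16 pointed the same way, 6 of them past the thresholds, and 0 passed them in the opposite direction. With the actin term, 14 of the 15 stayed above the median and 3 still passed, namely Tgfbi, Coro1a and Cdon, while Dtx3 was at −0.25. All 15 passed the thresholds with any 1 of the 9 fat arrays left out.

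**Figure D2:**
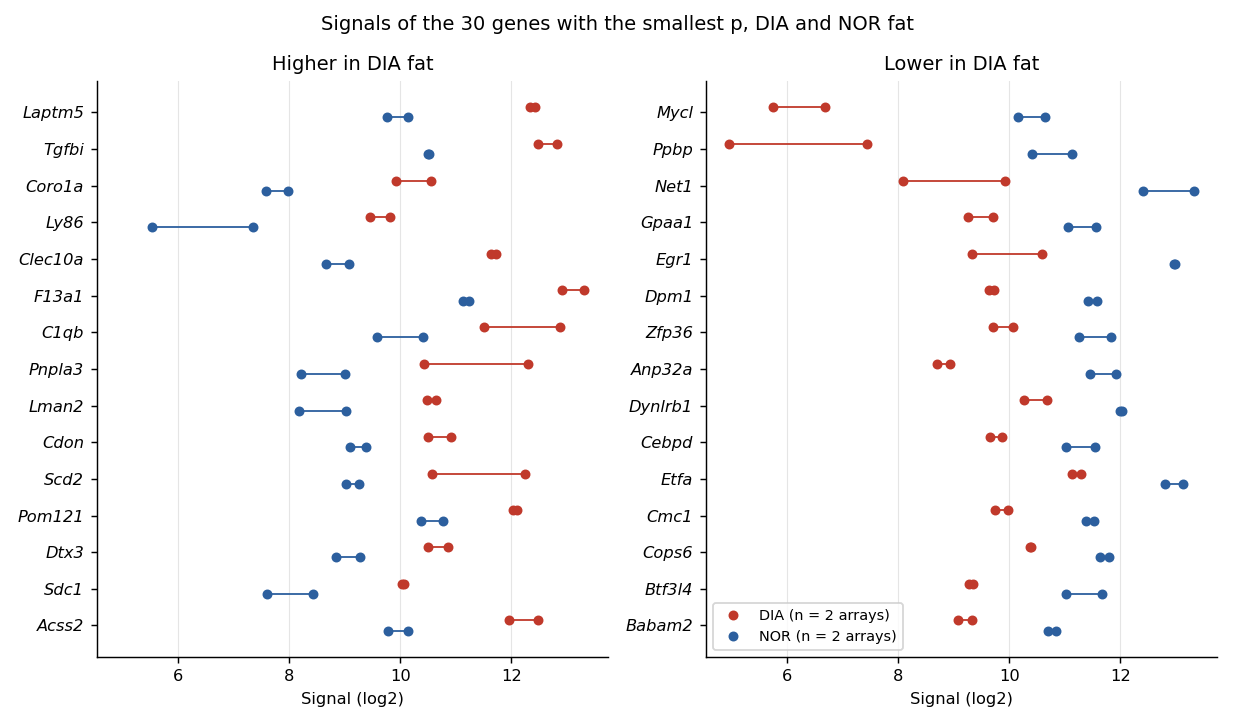
Signals (x axis, log2) of the 15 genes higher (left) and the 15 lower (right) in DIA fat with the smallest p, among those past the thresholds with separate groups and a mean no lower than the median. Points are single arrays, DIA above NOR in each row, and lines join the 2 arrays of a group. The 2 groups are apart in all 30 rows because the choice required it. The widest gap is that of Mycl, at 102 and 53.2 in DIA fat and 1606 and 1137 in NOR fat before taking logs.

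The sharpest difference in the other direction was in Mycl, a transcription factor of the Myc family. Its signal was 102 and 53.2 in DIA fat against 1606 and 1137 in NOR fat, a change of −4.09 (SE 0.53, adjusted p = 0.143), and the treated arrays held 657 and 1585 under AAT and 645, 1320.0 and 990.1 under PM. Of 2 dimmer probe sets of Mycl, 1 pointed the same way without passing (−1.83) and the other stood at 234 and 163 in DIA fat and 241 and 185 in NOR fat. The platelet chemokine Ppbp gave 174 and 31 in DIA fat and 2237 and 1362 in NOR fat, a change of −4.47 (SE 0.71, adjusted p = 0.297). Net1, an activator of the small GTPase RhoA, gave 973 and 269.6 in DIA fat and 10293 and 5416 in NOR fat, a change of −3.76 (SE 0.70, adjusted p = 0.388). These 3 genes were lower in DIA fat by 17-fold, 22.1-fold and 13.5-fold relative to the median, and in each of them DIA array 2 held the lowest signal.

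Among the other genes lower in DIA fat were regulators that switch on or off quickly. Egr1, an early growth response factor, had 640.4 and 1541 in DIA fat against 7993 and 8115 in NOR fat, a change of −2.91 (SE 0.56, adjusted p = 0.388). Zfp36 encodes tristetraprolin, which speeds the decay of Tnf and other cytokine mRNAs, and stood at 837 and 1066 in DIA fat and 3658 and 2447 in NOR fat, a change of −1.56 (SE 0.32, adjusted p = 0.388). Cebpd, a C/EBP factor that responds to glucocorticoids and starts adipogenesis, stood at 804 and 934 in DIA fat and 2994 and 2088 in NOR fat, a change of −1.42 (SE 0.31, adjusted p = 0.388). All 7 other fat arrays lay above the DIA arrays in each of these 3. Anp32a, an inhibitor of the phosphatase PP2A, was at 414 and 491 in DIA fat and 2789 and 3854 in NOR fat and changed by −2.76 (SE 0.57), while its 2 other probe sets did not pass, at −0.66 and −0.01. Etfa, the electron acceptor of fatty acid oxidation, gave 2489 and 2251 in DIA fat and 8919 and 7124 in NOR fat, a change of −1.65 (SE 0.37, adjusted p = 0.388).

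The rest of the 15 lower genes were of several kinds. Dpm1, the dolichol phosphate mannose synthase, changed by −1.71 (SE 0.35), and Gpaa1, a subunit of the enzyme that attaches GPI anchors, by −1.73 (SE 0.34). A dimmer second probe set of Gpaa1 was 9.38-fold higher in DIA fat, so the direction of this gene is not settled by the array. The dynein light chain Dynlrb1 changed by −1.43 (SE 0.31), the mitochondrial assembly factor Cmc1 by −1.48 (SE 0.34), and Cops6 of the COP9 signalosome by −1.23 (SE 0.28). Btf3l4, related to a basal transcription factor, changed by −1.93 (SE 0.44) and Babam2 of the BRCA1-A complex by −1.47 (SE 0.34). Of 14 other probe sets of the 15 lower genes, 8 pointed the same way, 1 passed the thresholds with them and 1, that of Gpaa1, passed in the opposite direction. With the actin term all 15 stayed below the median of that fit, and Egr1, Zfp36 and Cebpd still passed the thresholds. Being below that median is not the same as being lower as measured. Etfa, at −0.56, had an unadjusted p of 0.99996 there, and Btf3l4, at −0.20, of 0.62 (limma). All 15 also passed with any 1 of the 9 fat arrays left out.

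Of the lipid synthesis genes and their regulators that were called, 12 were higher in DIA fat and 1, Insig2, was lower. Of 15 measured genes of fatty acid synthesis and desaturation, 13 lay above the median of all genes, 3 were called higher and 0 lower, and the median change was 1.05. Acly, which makes cytosolic acetyl-CoA from citrate, had 13867 and 17252 in DIA fat against 4414 and 3152 in NOR fat, a change of 2.16 (SE 0.53, adjusted p = 0.417). Acss2, which makes acetyl-CoA from acetate, had 3958 and 5744 in DIA fat against 1122 and 880.3 in NOR fat, a change of 2.37 (SE 0.52, adjusted p = 0.39). The desaturase Scd2 had 1530.2 and 4864 in DIA fat against 519 and 614 in NOR fat, a change of 2.38 (SE 0.50, adjusted p = 0.388). DIA array 2 was the highest of the fat arrays in all 3 genes, and PM array 1 was the highest treated array in Acly and Acss2, at 8379 and 2548. Acaca, the rate-limiting acetyl-CoA carboxylase, was at 22561 and 25996 in DIA fat and 14869 and 5136 in NOR fat and did not pass, at 1.58 (SE 0.73, adjusted p = 0.585). Scd1, the main desaturase of fat, overlapped between groups at 62412 and 103400.0 in DIA fat and 123690.0 and 85512 in NOR fat, with a change of −0.25 (SE 0.82). With the actin term Scd1 was at −4.75 (SE 1.46) and passed as lower.

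The steps from fatty acid to stored triglyceride lay on the same side. Of 19 measured genes, 16 lay above the median, and 3 were called higher, beside 3.24% of all genes, with a list median of 0.76. The DIA arrays lay wholly above the NOR arrays in 11 of the 19 and wholly below in 2, beside 17.2% and 24.1% of all genes. Agpat2, which adds the second acyl chain to glycerol, was at 7501 and 10563 in DIA fat and 2884 and 2119 in NOR fat, a change of 1.95 (SE 0.53, adjusted p = 0.417). Dgat2, which completes triglyceride, was at 6906 and 30800.0 in DIA fat and 2888 and 3376 in NOR fat, a change of 2.33 (SE 0.72, adjusted p = 0.438). Pnpla3, a lipid droplet protein that feeding and SREBP-1c induce in mouse fat, was at 1383 and 5077 in DIA fat and 511 and 296 in NOR fat, a change of 2.88 (SE 0.56, adjusted p = 0.388). In Dgat2 and Pnpla3 the signal of DIA array 2 was several times that of DIA array 1, and Dgat2 did not pass without DIA array 2, at 1.17. Gpam, the first acyltransferase, did not pass at 1.06 (SE 0.44, adjusted p = 0.562), and the droplet protein Cidec was at 17103 and 27253 in DIA fat and 42142 and 33250.0 in NOR fat, and did not pass at −0.69 (SE 0.42, adjusted p = 0.61). Pgd, an enzyme of the pentose phosphate pathway that yields NADPH for lipid synthesis, was the 1 of 8 such genes called higher, at 7692 and 15102 in DIA fat and 2762 and 2545 in NOR fat, a change of 2.13 (SE 0.50, adjusted p = 0.416).

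Regulators of lipid synthesis were also called. Of 13 measured, 11 lay above the median, 3 were called higher and 1 lower, and the median was 0.44. Srebf1, which encodes SREBP-1, was at 5445 and 5289.5 in DIA fat and 2189 and 1889 in NOR fat, a change of 1.51 (SE 0.49, adjusted p = 0.468). Mlxipl, which encodes ChREBP, was at 5438 and 5628 in DIA fat and 1632 and 967 in NOR fat, a change of 2.25 (SE 0.58, adjusted p = 0.417). Insig1, the insulin-induced anchor that holds SREBPs in the endoplasmic reticulum and is itself an SREBP target, was at 5389.7 and 8102 in DIA fat and 1148 and 1093 in NOR fat, a change of 2.67 (SE 0.62, adjusted p = 0.405). Insig2, its counterpart that insulin lowers in liver, was at 563 and 923 in DIA fat and 1788 and 1208 in NOR fat and was called lower, with a change of −0.92 (SE 0.35, adjusted p = 0.451). Both Insig genes therefore differed, in opposite directions, and neither had overlapping groups. In cholesterol synthesis and uptake 2 of 16 genes were called higher, the demethylase Cyp51 at 466 and 462 in DIA fat and 33.7 and 100.1 in NOR fat and the cyclase Lss at 509 and 665 in DIA fat and 79.8 and 331 in NOR fat, with a list median of 0.64. Lss passed in 13 of 19 settings, with 0.79 without NOR array 1 and 3.17 without NOR array 2, and Insig2 in 13 of 19, with −1.36 without DIA array 2 and −0.53 without DIA array 1.

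**Figure D3:**
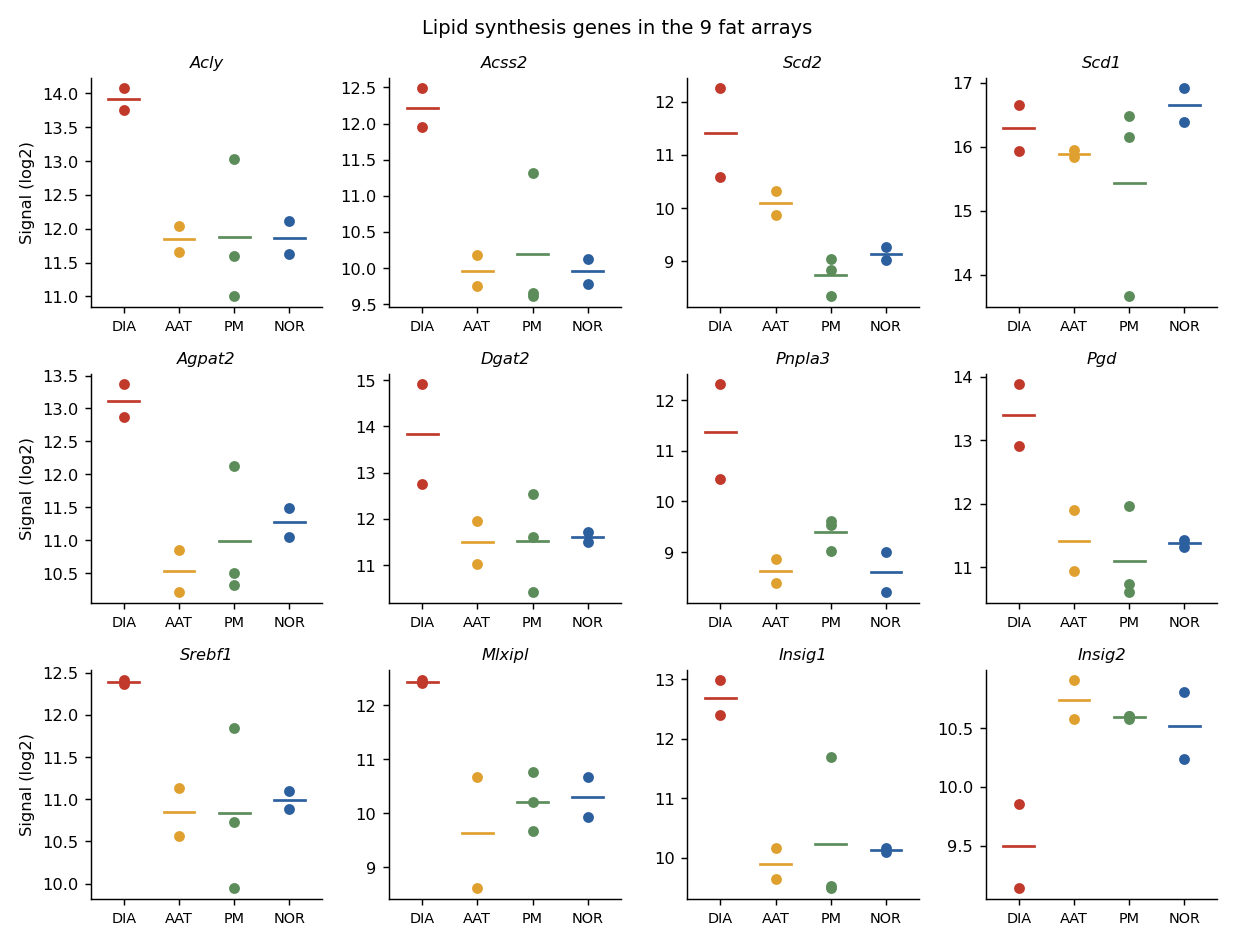
Signals (y axis, log2, a separate scale in each panel) of 12 lipid synthesis genes in the 9 fat arrays by group (x axis). Points are arrays and bars group means. The DIA arrays lie above all NOR arrays in 10 panels, overlap them in Scd1 and lie below them in Insig2, and PM array 1 is the highest treated array in Acly, Acss2, Insig1 and Srebf1.

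Under the actin term 4 of these 5 lists did not keep their side of the median of all genes, and pentose phosphate, at 0.39 without and 0.28 with the term, did. The median meant is that of the fit with the term, so a list below it need not be lower as measured. The median of fatty acid synthesis was −0.31 with the term, that of glyceride synthesis −1.32, that of the regulators −0.92 and that of cholesterol synthesis −0.53. Among the called genes, Pnpla3 was at 2.38 (SE 1.35), Scd2 at 1.05 (SE 1.19) and Lss at 2.55 (SE 1.81), whereas Acly was at −0.54, Dgat2 at −1.72 and Mlxipl at −1.09. None of these genes passed the thresholds there. With 1 fat array left out at a time the lowest and highest medians of fatty acid synthesis were 0.55 without NOR array 2 and 1.62 without NOR array 1, and those of cholesterol synthesis 0.20 without NOR array 1 and 0.68 without NOR array 2.

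The promoters of lipid genes that were higher in DIA fat are shown because they were called in 1 direction, and 1 immediate early gene that was lower is shown beside them. In RefSeq windows from 250 bases before to 50 bases after the gene start (GRCm38.p6), 10 of the 12 called lipid genes have a window. The CCAAT box (CCAAT, searched on both strands) is present in 10 of their 14 windows, against 37.4% of all 32851 windows. The E-box (CACGTG) is present for 2 of the 10 genes, against 8.09% of all 27025 genes with a window. The core of the sterol regulatory element (CACCCCAC) is present for 1, against 3.3%. Capitals mark every match to these motifs, to the cAMP response element (TGACGTCA) and to the CArG box, and a match on the other strand reads as its reverse complement. The windows are on the plus strand at chr5:28071162-28071461 for Insig1, the plus strand at chr2:155517793-155518092 for Acss2, the minus strand at chr11:100527951-100528250 for Acly, the minus strand at chr5:4104648-4104947 for Cyp51, the plus strand at chr15:84167566-84167865 for Pnpla3 and the minus strand at chr7:28379179-28379478 for Zfp36.
Insig1: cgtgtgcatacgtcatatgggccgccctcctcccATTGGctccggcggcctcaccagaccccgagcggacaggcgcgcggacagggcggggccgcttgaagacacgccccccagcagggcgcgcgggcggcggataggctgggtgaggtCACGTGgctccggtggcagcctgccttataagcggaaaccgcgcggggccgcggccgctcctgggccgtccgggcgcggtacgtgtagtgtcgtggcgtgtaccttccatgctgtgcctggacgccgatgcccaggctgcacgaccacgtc
Acss2: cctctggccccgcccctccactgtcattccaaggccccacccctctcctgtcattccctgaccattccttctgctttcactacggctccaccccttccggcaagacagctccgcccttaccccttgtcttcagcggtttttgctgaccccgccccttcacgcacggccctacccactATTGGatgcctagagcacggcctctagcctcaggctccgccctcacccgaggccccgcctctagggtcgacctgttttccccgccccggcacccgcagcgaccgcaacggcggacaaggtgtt
Acly: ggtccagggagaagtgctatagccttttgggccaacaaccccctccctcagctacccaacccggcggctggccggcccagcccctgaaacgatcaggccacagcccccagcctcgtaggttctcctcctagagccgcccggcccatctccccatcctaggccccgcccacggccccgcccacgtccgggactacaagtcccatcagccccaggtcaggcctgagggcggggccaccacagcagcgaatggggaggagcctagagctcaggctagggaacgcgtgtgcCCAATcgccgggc
Cyp51: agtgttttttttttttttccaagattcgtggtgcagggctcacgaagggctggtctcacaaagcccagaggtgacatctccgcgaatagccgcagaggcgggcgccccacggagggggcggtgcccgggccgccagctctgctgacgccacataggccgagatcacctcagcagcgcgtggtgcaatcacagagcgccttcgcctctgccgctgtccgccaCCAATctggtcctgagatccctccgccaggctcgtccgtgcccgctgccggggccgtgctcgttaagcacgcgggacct
Pnpla3: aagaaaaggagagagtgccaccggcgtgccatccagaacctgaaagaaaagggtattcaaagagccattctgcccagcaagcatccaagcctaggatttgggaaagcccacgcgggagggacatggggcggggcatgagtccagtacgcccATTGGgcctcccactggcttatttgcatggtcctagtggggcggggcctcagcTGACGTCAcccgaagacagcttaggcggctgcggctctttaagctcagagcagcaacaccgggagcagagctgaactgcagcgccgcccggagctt
Zfp36: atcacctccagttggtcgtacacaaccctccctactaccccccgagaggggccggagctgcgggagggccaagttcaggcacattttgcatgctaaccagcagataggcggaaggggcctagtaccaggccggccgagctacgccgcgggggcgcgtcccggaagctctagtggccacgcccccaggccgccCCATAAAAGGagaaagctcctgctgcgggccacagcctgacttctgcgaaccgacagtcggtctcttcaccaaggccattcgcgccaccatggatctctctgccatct
The 5 lipid windows each hold 1 CCAAT box, that of Insig1 also an E-box and that of Pnpla3 a cAMP response element. Zfp36 holds a CArG box, the binding motif of serum response factor, and no CCAAT box. Of the 6 immediate early genes called lower, only 3 were searched, Dusp1, Fos and Zfp36, and Egr1 was not among them. None of the 3 holds a CCAAT box, and Zfp36 alone holds a CArG box. Insig2, the lipid gene called lower, holds 3 CCAAT boxes in 1 of its 3 windows, while Agpat2, called higher, holds none. Dusp1 holds a core of the sterol regulatory element, an E-box and a cAMP response element, and Fos holds none of the motifs. These matches describe letters and not binding.

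Genes of fatty acid oxidation that were called were all lower in DIA fat. Of 18 measured genes of fatty acid oxidation, 12 lay below the median, and the list median was −0.27. The DIA arrays lay wholly below the NOR arrays in 8 and wholly above in 2, beside 24.1% and 17.2% of all genes. At the thresholds 4 were called lower and 0 higher, beside 3.62% and 3.24% of all genes. Besides Etfa these were the enoyl-CoA hydratase Echs1, at 1288 and 1521 in DIA fat and 6484 and 3937 in NOR fat, a change of −1.75 (SE 0.44, adjusted p = 0.396). Etfdh, which passes electrons from Etfa to ubiquinone, was at 495 and 552 in DIA fat and 1283 and 1337 in NOR fat, a change of −1.22 (SE 0.38, adjusted p = 0.417). The isomerase Eci1 was at 1534 and 1867 in DIA fat and 4196 and 3276 in NOR fat, a change of −1.03 (SE 0.36, adjusted p = 0.438). The groups did not overlap in any of the 4 genes, which the choice required only for Etfa. In all of them AAT array 1 held the lowest signal of the treated arrays. Of 10 lipolysis genes 7 lay above the median, with a list median of 0.43 that was below 0 without NOR array 1 and with all probe sets of a gene averaged, −0.28 without DIA array 2 and −1.75 with the actin term. The 1 called gene of lipolysis was Abhd5, the coactivator of the triglyceride lipase, which was lower at 1321 and 1388 in DIA fat and 5401 and 3282 in NOR fat, a change of −1.53 (SE 0.43, adjusted p = 0.417), while the lipase Pnpla2 itself overlapped at 11426 and 20725 in DIA fat and 18979 and 18603 in NOR fat. Once the actin term entered, Abhd5 was at 0.18 and the 4 oxidation genes between −0.56 and −0.14, relative to the median of that fit. None of them passed the thresholds there, and the unadjusted p of the 4 oxidation genes was 0.55 to 0.99996 (limma). The lowest and highest medians of the oxidation list with 1 array left out were −0.38 without NOR array 2 and −0.14 without NOR array 1.

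Genes that fasting induces and insulin represses were split. Of 13 measured, 6 lay above the median and 7 below, 3 were called lower and 0 higher, with a median of −0.11. Pdk4, the kinase that turns off pyruvate dehydrogenase, was at 1828 and 1732 in DIA fat and 4986 and 4492 in NOR fat, a change of −1.30 (SE 0.40, adjusted p = 0.417). Txnip, which restrains glucose uptake, was at 10705 and 7235 in DIA fat and 17598 and 24017 in NOR fat, a change of −1.12 (SE 0.37, adjusted p = 0.426). Pck1, which makes glycerol backbone for triglyceride in fasted fat, was at 5102 and 14139 in DIA fat and 18205 and 24811 in NOR fat, a change of −1.22 (SE 0.52, adjusted p = 0.503). All 5 treated arrays lay above both DIA arrays in these 3 genes, with Pdk4 at 10568 and 7964 under AAT and 10756, 4467 and 9475 under PM. Pdk4 kept its call under the actin term (−4.05) and in the rest of the 19 settings run for single genes. Pck1 did not pass with the term (−0.67), without DIA array 1 (−0.45) or without NOR array 2 (−0.79).

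**Figure D4:**
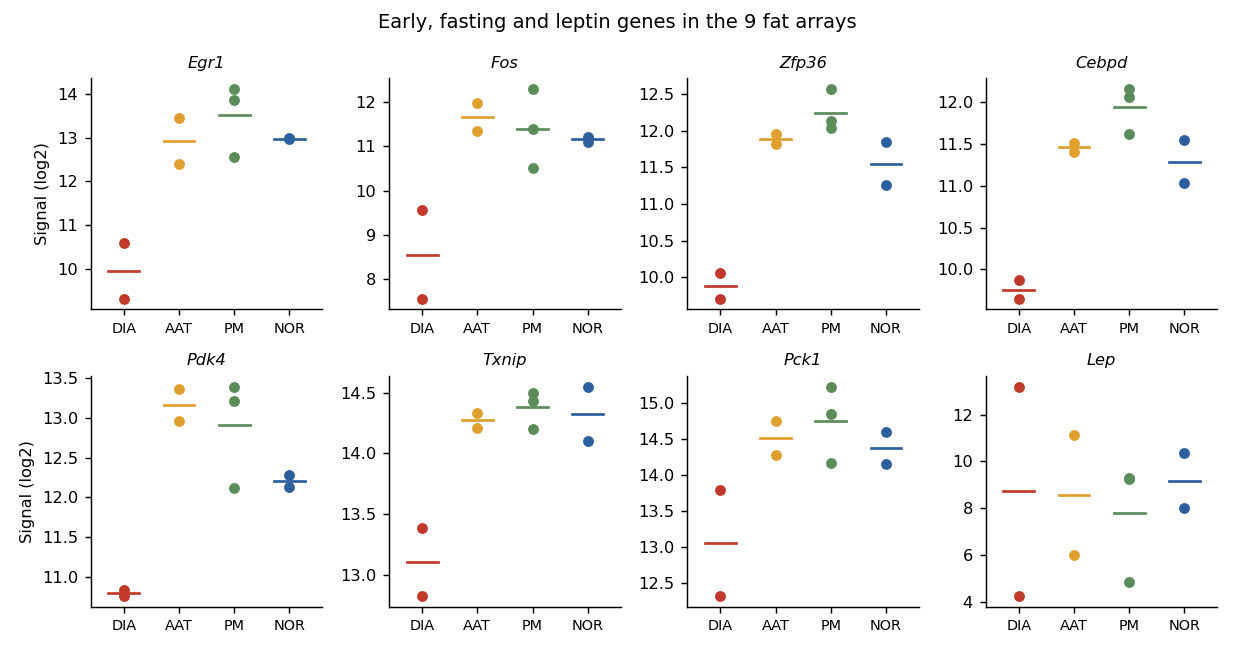
Signals (y axis, log2, a separate scale in each panel) of 8 genes in the 9 fat arrays by group (x axis), with points for arrays and bars for group means. In Egr1, Fos, Zfp36, Cebpd, Pdk4, Txnip and Pck1 the 2 DIA arrays lie below all other arrays, and in Lep they are the lowest and the highest of the 9.

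The immediate early genes, which cells switch on within minutes of a stimulus, were mostly low where they were called. Of 30 measured, 6 were called lower and 1 higher, beside 3.62% and 3.24% of all genes, and 18 lay below the median. Beside Egr1 and Zfp36, the AP-1 subunit Fos was at 189.5 and 751 in DIA fat and 2383 and 2200.0 in NOR fat, a change of −2.49 (SE 0.63, adjusted p = 0.411). Ier2 was at 538 and 881 in DIA fat and 1811 and 1455 in NOR fat, a change of −1.13 (SE 0.38, adjusted p = 0.426). The phosphatase Dusp1, which ends MAP kinase signaling, was at 1401 and 1797 in DIA fat and 3146 and 5869.8 in NOR fat, a change of −1.33 (SE 0.48, adjusted p = 0.446). Myc was at 155 and 150.1 in DIA fat and 527 and 465 in NOR fat, a change of −1.59 (SE 0.45, adjusted p = 0.417). The groups did not overlap in any of the 6 genes, which the choice required only for Egr1 and Zfp36. Jund, an AP-1 subunit that is expressed at rest, was higher at 6743 and 9169 in DIA fat and 2929 and 4701 in NOR fat, a change of 1.19 (SE 0.36, adjusted p = 0.451). The list median was −0.26, and with 1 array left out it ranged to −0.80 without NOR array 1 and 0.24 without NOR array 2. With the actin term the 6 lower genes stayed lower, from −6.68 in Egr1 to −1.51 in Myc, and Jund was at −0.62. In the glucocorticoid response 4 of 15 genes were lower, Cebpd, Pdk4, Dusp1 and the EGF receptor inhibitor Errfi1 (−1.19, SE 0.48), and 0 higher. Errfi1 moved to −1.76 without NOR array 2 and −0.55 without NOR array 1.

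All macrophage and complement genes that were called were higher in DIA fat. Of 25 macrophage markers 19 lay above the median, 7 were called higher and 0 lower, and the median was 0.73. The 6 below the median of all genes were Trem2 (−1.89), Itgam (−1.50), Marco (−1.25), Cd14 (−0.36), Cd163 (−0.16) and Fcgr1 (−0.13). Adgre1 (0.55) and Cd68 (0.28) were not called. The DIA arrays lay wholly above the NOR arrays in 11 markers and wholly below in 2, beside 17.2% and 24.1% of all genes. The summed signal of the markers was 27475 to 45469 in DIA fat and 14513 to 15288 in NOR fat. Beside C1qb and Clec10a, Csf1r, the receptor for macrophage growth factor, was at 5459.6 and 7004 in DIA fat and 1566 and 1680.2 in NOR fat, a change of 2.04 (SE 0.47, adjusted p = 0.411). The lysosomal protease Ctss was at 1757 and 3577 in DIA fat and 938 and 816 in NOR fat, a change of 1.63 (SE 0.38, adjusted p = 0.416). The mannose receptor Mrc1 was at 872 and 2399.8 in DIA fat and 547 and 493 in NOR fat, a change of 1.58 (SE 0.48, adjusted p = 0.439), and the pore protein Mpeg1 at 831 and 866 in DIA fat and 207 and 419.9 in NOR fat, a change of 1.63 (SE 0.48, adjusted p = 0.438). All of these had DIA arrays above both NOR arrays, and in Ctss, Mrc1 and C1qb DIA array 2 gave the higher signal of the 2. C1qc was at 509 and 1725 in DIA fat and 112 and 334 in NOR fat, a change of 2.38 (SE 0.60, adjusted p = 0.417), and the properdin gene Cfp at 1.12 (SE 0.44), which passed in 12 of 19 settings, so that 3 of 11 complement genes were called and all 11 lay above the median. The median of complement was 0.94, and 0.39 with the actin term, and the extremes with 1 array left out were 0.11 without DIA array 2 and 1.03 without DIA array 1. The list median of macrophage markers ranged to 0.36 without DIA array 2 and 1.35 without DIA array 1, and it was 0.80 with the actin term, where 4 of the 7 called genes stayed above the median, and Csf1r was at −1.37 and Clec10a at 0.13.

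Lymphocyte genes did not move together. Of 18 T cell markers 0 were called, with a median of 0.20 and a summed signal of 3658 to 4740.0 in DIA fat and 2769 to 6180.0 in NOR fat. Of 14 B cell markers 1 was higher, Cd79a of the B cell receptor at 91.6 and 358 in DIA fat and 24.3 and 71.8 in NOR fat, and 1 lower, the kinase Blk at 331 and 277 in DIA fat and 1089 and 512 in NOR fat. Cd79a passed in 10 of 19 settings, with 1.15 without DIA array 2 and 3.24 without DIA array 1, and Blk in 13 of 19, with −1.54 without NOR array 2 and −0.78 without NOR array 1. In the fit with the actin term the median was 1.19 for T cell and 1.58 for B cell markers, and Blk was at 1.19. In antigen presentation by MHC class II, Ctss was the 1 called among 10 genes, beside 3.24% of all genes called higher. The median was 0.58, and −0.20 without DIA array 2. Lysosomal genes had a median of 0.83, which was −2.43 with the actin term and 0.28 without NOR array 1. The progranulin gene Grn at 1.88 (SE 0.70) and the protease Ctsa at 1.41 (SE 0.50) were called higher. Each passed in 14 of 19 settings, which for Grn include the fit with the actin term, where it passed as lower at −3.61.

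TNF-α, the cytokine the study is about, was not called at the mRNA level in fat. Tnf gave low signals of 25.6 and 100.2 in DIA fat and 79.3 and 31.7 in NOR fat, a change of 0.12 (SE 1.11). Its receptors Tnfrsf1a, at 2383 and 3042 in DIA fat and 2059 and 3309 in NOR fat, and Tnfrsf1b, at 646 and 548 in DIA fat and 790.1 and 460.4 in NOR fat, differed by 0.15 (SE 0.37) and 0.09 (SE 0.42) and did not pass. The groups overlapped in all 3 genes. With a standard error above 1 on the log2 scale, a sizeable difference in Tnf was not detectable here. Another 2 genes were called higher among 14 of the pathway. Ltb, the beta chain of lymphotoxin, was at 142 and 368 in DIA fat and 13.7 and 41.6 in NOR fat, a change of 3.36 (SE 0.86, adjusted p = 0.417). Tnfaip2, a TNF-inducible gene, was at 830.0 and 574 in DIA fat and 232 and 446 in NOR fat, a change of 1.21 (SE 0.50, adjusted p = 0.553), and passed in 10 of 19 settings, with 0.61 without NOR array 1 and 1.88 without NOR array 2. The list median was 0.28, and −0.66 with the actin term, where Tnfrsf1a was at −2.15 and passed as lower. Of 12 NF-kB genes 1, Ikbkb, the kinase that releases NF-kB from its inhibitor, was called, at 2124 and 2276 in DIA fat and 387 and 1504 in NOR fat, a change of 1.63 (SE 0.57, adjusted p = 0.48), and 0 were lower. Ikbkb passed in 14 of 19 settings, with 0.53 without NOR array 1 and 2.81 without NOR array 2, and was at −1.63 with the actin term.

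The insulin receptor and its immediate partners were not called. Insr was at 3769 and 3242 in DIA fat and 1233 and 2324 in NOR fat, a change of 1.15 (SE 0.55, adjusted p = 0.61). Slc2a4, which encodes Glut4, was at 2335 and 4046 in DIA fat and 1494 and 1369.8 in NOR fat, a change of 1.21 (SE 0.63, adjusted p = 0.632). Both genes had DIA arrays wholly above the NOR arrays, but at a spread that did not pass the thresholds. Both turned with the actin term, to −3.02 for Insr and −3.10 for Slc2a4, and passed there as lower. The docking protein Irs1 overlapped at 1821 and 2335 in DIA fat and 2256 and 1942 in NOR fat, a change of 0.08 (SE 0.34). With the actin term Irs1 was at 0.92 and passed as higher. Of 19 genes of insulin signaling 1 was called, lower, beside 3.62% of all genes. This was Gsk3b, the kinase that insulin turns off through Akt, at 1058 and 893 in DIA fat and 2469 and 1571 in NOR fat. It passed in 13 of 19 settings. The list median of insulin signaling was 0.09, and −0.69 with the actin term. Rheb, the activator of mTOR complex 1, was the 1 of 14 mTOR genes called, lower, beside 3.62% of all genes. It was at 1686 and 3294 in DIA fat and 5510.0 and 5880.0 in NOR fat, a change of −1.17 (SE 0.39, adjusted p = 0.426).

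Adipocyte genes and adipokines were not called. Of 11 adipocyte markers and 12 adipokines 0 were called, with medians of 0.25 and −0.20, and of −2.26 and −1.90 with the actin term. Adiponectin (Adipoq) overlapped at 20191 and 48984 in DIA fat and 41908 and 48729 in NOR fat, a change of −0.42 (SE 0.61), and resistin (Retn) was at 26824 and 47888 in DIA fat and 25458 and 22618 in NOR fat. With the term Adipoq was at −3.99 and Retn at −4.20. Leptin (Lep), the hormone that reports fat stores, was at 18.7 and 9408 in DIA fat and 255 and 1299 in NOR fat. The 2 DIA arrays were the lowest and the highest of the 9 fat arrays in Lep, with 2252 and 63.1 under AAT and 599.8, 28.2 and 619.8 under PM, and its standard error of 2.50 compares with a median of 0.78 over all transcripts. With the actin term Lep was at −13.3 (SE 4.74) and passed as lower. Of 12 brown fat markers 0 were called, with a median of 0.06.

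Matrix and splicing genes lay mostly above the median. Of 34 genes of the extracellular matrix and fibroblasts 31 did, 5 were called higher and 0 lower, and the median was 0.67. The collagens Col1a1, at 1005 and 1625 in DIA fat and 322 and 621 in NOR fat, and Col6a1, at 3601 and 9336 in DIA fat and 2016 and 2655 in NOR fat, changed by 1.62 (SE 0.51) and 1.43 (SE 0.47). The gelatinase Mmp2 was at 2555 and 2139 in DIA fat and 1185 and 937 in NOR fat, a change of 1.26 (SE 0.35, adjusted p = 0.426), followed by the crosslinking enzyme Loxl1 (1.30, SE 0.53) and the fibroblast progenitor marker Pi16 (2.34, SE 1.01). Loxl1 passed in 6 of 19 settings and Pi16 in 8 of 19, with Pi16 at 1.14 without NOR array 1 and 3.61 without NOR array 2, and Col6a1 moved to 0.66 without DIA array 2 and 2.16 without DIA array 1. Of 30 splicing genes 28 lay above the median, 9 were called higher and 0 lower, and the median was 0.73. Snrnp70, a protein of the U1 particle, was at 3118 and 3694 in DIA fat and 915 and 1436 in NOR fat, a change of 1.67 (SE 0.44, adjusted p = 0.417), and Clk4, a kinase of splicing factors, at 1015 and 1338 in DIA fat and 508 and 304 in NOR fat, a change of 1.67 (SE 0.49, adjusted p = 0.432). Son, of nuclear speckles, was at 19068 and 11844 in DIA fat and 3212 and 6377 in NOR fat, and the helicase Ddx17 at 24961 and 20036 in DIA fat and 7095 and 13427 in NOR fat. Son passed in 14 of 19 settings and Ddx17 in 12 of 19. These include the fit with the actin term, where both passed as lower, at −3.28 and −2.58. AAT array 1, whose actin ratio of 9.08 is the highest outside DIA, gave 11094 for Son, against 3526 in AAT array 2. Whether splicing genes follow the actin ratio was not tested. With the actin term the median was −1.74 for matrix and −1.06 for splicing, and 0 of the 9 splicing genes stayed above the median. With 1 array left out, the extremes were 0.17 without DIA array 2 and 1.23 without NOR array 2 for matrix and 0.28 without NOR array 1 and 1.19 without NOR array 2 for splicing.

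Blood vessel genes depended on single arrays. Of 23 endothelial markers 21 lay above the median, but 0 were called, and the median of 0.81 became −0.83 when NOR array 1 was left out and 2.27 when NOR array 2 was. Their summed signal was 41747 to 57717 in DIA fat, and the 2 NOR arrays enclosed this range at 10155 to 85340.0. The median was −7.04 with the actin term.

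**Figure D5:**
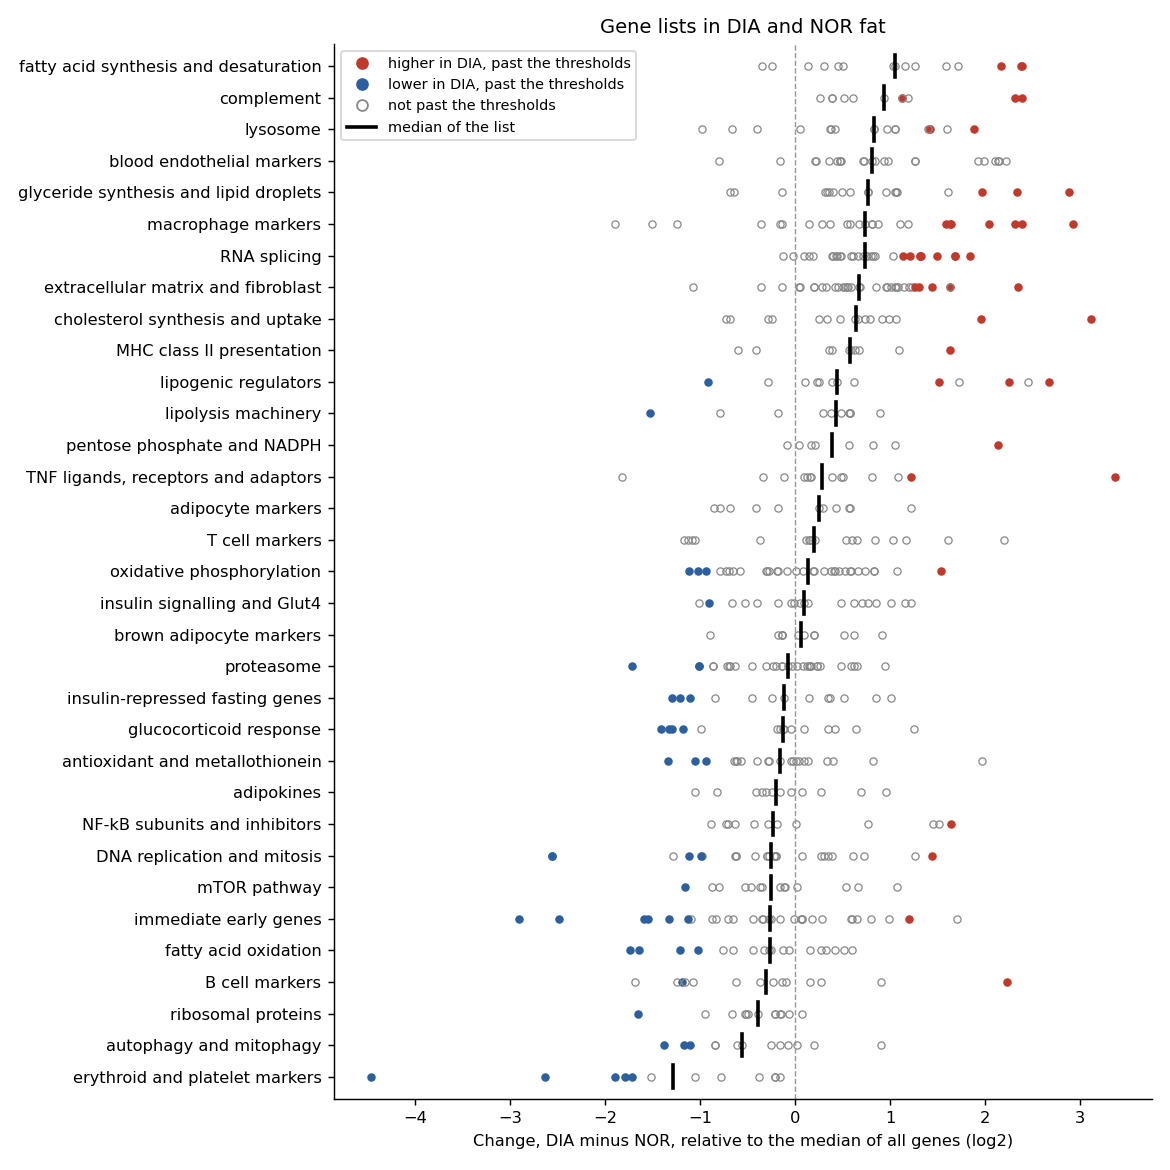
Change between DIA and NOR fat relative to the median of all genes (x axis, log2) for each measured member (points) of 33 gene lists (rows), with the list median as a bar. Filled points passed the thresholds, higher in DIA in red and lower in blue. Fatty acid synthesis (1.05) and complement (0.94) have the highest medians, and erythroid and platelet markers (−1.28) the lowest.

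Of the erythroid and platelet genes 5 were lower in DIA fat. All 12 measured lay below the median, 0 were called higher, and the median was −1.28. Beside Ppbp, the red cell anion exchanger Slc4a1 was at 343 and 174 in DIA fat and 823 and 1169 in NOR fat, a change of −1.90 (SE 0.63, adjusted p = 0.434), and a second probe set of it was 8.44-fold lower. Alas2, the first enzyme of heme synthesis in red cells, was at 676 and 968 in DIA fat and 1551 and 5370.5 in NOR fat, a change of −1.73 (SE 0.71, adjusted p = 0.494), with −2.75 without NOR array 1 and −0.63 without NOR array 2. The other 2 were Bpgm (−1.80, SE 0.56) and Epb42 (−2.64, SE 1.09). The summed signal of the list was 4721 to 5527 in DIA fat and 12423 to 14552 in NOR fat, and NOR array 2 held the highest Alas2 and Bpgm of the 4 arrays. All 5 called genes stayed below the median with the actin term, and the list median had its extremes at −1.71 without DIA array 2 and −0.52 without DIA array 1.

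Genes of mitochondria were called in both directions. Of 32 nuclear genes of oxidative phosphorylation 1 was called higher and 3 lower, with a median of 0.14. Ndufa5 of complex I was higher at 12322 and 12100.0 in DIA fat and 4338 and 4804 in NOR fat, a change of 1.53 (SE 0.41, adjusted p = 0.42). The ATP synthase subunits Atp5c1 (−1.12, SE 0.37) and Atp5b (−0.94, SE 0.39) and Ndufs4 of complex I (−1.03, SE 0.35) were lower. In autophagy 10 of 13 genes lay below the median, and the list median was −0.56. The DIA arrays lay wholly below the NOR arrays in 9 of the 13 and wholly above in 1, beside 24.1% and 17.2% of all genes. The 3 called lower belong to the ATG8 family of autophagosome proteins, with Gabarapl1 at 2654 and 2083 in DIA fat and 8209.7 and 5321 in NOR fat, a change of −1.38 (SE 0.33, adjusted p = 0.388). Gabarapl2 changed by −1.11 (SE 0.43) and Map1lc3b, the LC3 of western blots, by −1.17 (SE 0.46). In the fit with the actin term Gabarapl1 was at −1.05, Gabarapl2 at 0.09 and Map1lc3b at 0.05. Ribosomal protein genes lay below the median in 12 of 13 cases with a median of −0.39, and Rps2, at 6237 and 12266 in DIA fat and 28734 and 30971 in NOR fat, was the 1 called.

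The difference between DIA and NOR was also set against that in pancreatic lymph nodes (PLNs; DIA 2 arrays, NOR 4) through an interaction term fitted to all 19 arrays. Of 45037 transcripts 2 (0.00444%) passed an adjusted p under 0.05 with limma, and 3997 had an unadjusted p under 0.05. The 2 were Hoxa9, a homeobox factor that marks position along the body, and Rfng, a glycosyltransferase that modifies Notch. Hoxa9 was at 2282 and 2711 in DIA fat and 1081 and 1207 in NOR fat, and Rfng at 1507 and 2003 in DIA fat and 136 and 716 in NOR fat. Among the genes described above, the smallest adjusted p of the interaction was 0.154, for Net1, whose log2 change as measured was −3.87 in fat and 0.62 in PLNs. C1qb changed by 2.20 as measured in fat and by −0.62 in PLNs, and Tgfbi by 2.14 in fat and by −0.24 in PLNs, with adjusted p of 0.178 and 0.180 for the difference.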

How the data were processed

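The arrays were Affymetrix Mouse 430 2.0, 1 colour, hybridised with biotin-labelled cRNA from total RNA of fat (9 arrays) and pancreatic lymph nodes (10 arrays). The deposited values are linear intensities that the authors made with MAS5 (version not given in the sources used here). Each array has a 2% trimmed mean of 500.0. The methods of the study name RMA and rank products, which are not the values deposited. All 19 columns of the table were used, and no column belongs to another sample. The label protocol names 2 ways of amplification and does not say which array had which.

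Control probe sets were left out (64), values under 1 were set to 1, and log2 was taken with no further normalization. R 4.3.3 and limma 3.58.1 (lmFit, eBayes with trend) fitted 1 mean per group over the 9 fat arrays, with the contrast DIA minus NOR, and Benjamini-Hochberg adjustment ran over 45037 probe sets. The platform annotation gives 1 gene for 34945 probe sets, several for 932 and none for 9160, and genes were named only from the first kind. Named genes are the 15 higher and the 15 lower with the smallest p among those past the thresholds, with separate groups and a mean no lower than the median, then up to 5 genes per list by p, up to 2 per list by mean, the called genes of the lists, and a fixed set around Tnf, insulin signaling and adipokines. Members and lists were chosen with earlier results of these data known. Only 33 of 57 lists are described. Deviations of same-numbered DIA and NOR arrays from their group means correlated at 0.055. With 2 arrays per group this cannot tell if the numbers pair the arrays, which were fitted as unpaired. Precision is limited by the number of arrays.

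Alternatives were median centring and quantile normalization, log2 of the signal plus 32, a floor at the 20th percentile, filters at the 40th and 60th percentile, only the DIA and NOR arrays, no trend, rank products with 100 permutations, 1 probe set per gene, the mean over probe sets, the replicate number as a block, the actin ratio as a covariate, and leaving out each array.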

Additional observations from a re-analysis of the deposited data

Results flagged for a closer look

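Hoxa9 and Rfng differed in their response between fat and PLNs, by an interaction term in 1 fit of all 19 arrays. For Hoxa9 the log2 change between DIA and NOR, as measured, was 1.12 in fat and −4.60 in PLNs, a difference of 5.73 (SE 0.88, adjusted p = 0.0393 with limma). For Rfng it was 2.48 in fat and −3.06 in PLNs, a difference of 5.54 (SE 0.88, adjusted p = 0.0393). Across the other settings the adjusted p of Hoxa9 lay between 0.00829 and 0.348 and that of Rfng between 0.00127 and 0.348. Without fat DIA array 2 both were at 0.348, and without PLN NOR array 4 both were at 0.121.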

How the results depend on the processing

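The count of transcripts at the thresholds was 3455. Filters gave 1633 at the 60th percentile (785 higher, 848 lower) and 1156 lower at the 40th. Rank products gave 5301 (2639 higher, 2662 lower) and 2 after adjustment, and 1 probe set per gene gave 1248 (589 higher, 659 lower). With the replicate number as a block there were 2759 calls, and the interaction with PLNs had 6. With 1 array left out the count lay between 2163 (without NOR array 1) and 5102 (without NOR array 2), the higher ones between 980 (without DIA array 1) and 2755, the lower ones between 827 and 2347, and those after adjustment between 0 and 13. The share that was higher was 49.5%, against 61.8% without NOR array 1 and 35.6% without DIA array 1. The interaction had 4 calls with quantile normalization, 1 with median centring, 6 with log2 of the signal plus 32 and 0 without trend, and between 0 and 323 (without PLN DIA array 2) with 1 array left out.

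The fit with the actin term gave 4634 calls and 105 after adjustment, and 230 (6.66%) of the 3455 were among them. List medians that were larger than the spread between arrays and changed sign with the term were fatty acid synthesis at −0.31, glyceride synthesis at −1.32, lipogenic regulators at −0.92, cholesterol synthesis at −0.53, TNF genes at −0.66, matrix at −1.74, antioxidant genes at 0.18, lysosome at −2.43, autophagy at 0.22, ribosomal proteins at 0.99 and splicing at −1.06. Smaller medians, within that spread, changed sign too, with lipolysis at −1.75, oxidative phosphorylation at −0.56, insulin signaling at −0.69, adipocyte markers at −2.26, brown fat markers at −0.90, B cell markers at 1.58 and endothelial markers at −7.04. The median of antioxidant genes was also 0.0706 without DIA array 1. Relative log2 changes of genes that were called in either fit and changed sign with the term were Dtx3 −0.25, Acly −0.54, Agpat2 −0.45, Dgat2 −1.72, Pgd −0.35, Mlxipl −1.09, Srebf1 −1.49, Cyp51 −0.37, Abhd5 0.18, Ndufa5 −0.89, Gabarapl2 0.0947, Map1lc3b 0.0498, Prdx3 0.0451, Csf1r −1.37, Mrc1 −0.21, Mpeg1 −0.81, Ikbkb −1.63, Tnfrsf1a −2.15, Blk 1.19, Grn −3.61, Ctsa −1.90, Insr −3.02, Slc2a4 −3.10, Retn −4.20, Jund −0.62, Col1a1 −0.57, Col6a1 −0.53, Mmp2 −0.15, Loxl1 −2.21, Snrnp70 −1.45, Clk4 −0.65, Son −3.28, Ddx17 −2.58 and Aurkb 1.23. Among named genes called in neither, Acaca was at −0.24, Thrsp at −0.56, Gpam at −1.39 and Fabp4 at 1.25. All these signs are relative to the median of the fit with the term, so a value below 0 need not be lower as measured. Acly, at −0.54, had an unadjusted p of 0.98 there, and Agpat2, at −0.45, of 0.92 (limma). Grn, Insr, Slc2a4, Retn, Son, Ddx17 and Tnfrsf1a did pass there as lower. The cause was not tested, and the DIA arrays lie beyond the actin ratios of the other groups. The settings run for single genes were 19 and do not include rank products. Of the 100 called genes named, 9 passed in every setting, Egr1, Fos, Zfp36, Cebpd, Pdk4, Cdon, Ctss, Tgfbi and Coro1a.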

Other observations

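Genes of DNA replication and mitosis were called in both directions, with 17 of 26 below the median and a list median of −0.25. The mitotic kinase Cdk1 was at 26.6 and 199 in DIA fat and 732 and 293 in NOR fat, a change of −2.56 (SE 0.89), and the kinase Aurkb was at 62 and 24.1 in DIA fat and 328 and 183 in NOR fat, a change of −2.56 (SE 1.12). Pcna, the sliding clamp of DNA polymerase, changed by −0.99 (SE 0.34) and cyclin Ccna2 by −1.13 (SE 0.51), while Mcm5 of the replicative helicase was higher at 455 and 438 in DIA fat and 108 and 294 in NOR fat. Mcm5 passed in 9 of 19 settings and Aurkb in 12 of 19, and Cdk1 moved to −4.10 without DIA array 2 and −1.08 without DIA array 1. Of 31 proteasome genes 3 were called lower, Psmd7 (−1.72, SE 0.41), Psmd8 (−1.01, SE 0.30) and Psmb7 (−1.02, SE 0.44), and the list median was −0.07. Of 21 antioxidant genes 3 were called lower. The glutathione peroxidase Gpx1 was at 12565 and 17855 in DIA fat and 42164 and 40010.0 in NOR fat, a change of −1.35 (SE 0.41), the mitochondrial peroxiredoxin Prdx3 changed by −0.95 (SE 0.36) and Gclm, of glutathione synthesis, by −1.06 (SE 0.44).

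PM array 1 gave higher signals of lipid genes than the other PM arrays. Acly was at 8379, 2045 and 3092 in the 3 PM arrays, Insig1 at 3297, 716 and 734 and Srebf1 at 3668, 985 and 1700.0.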
